A study of Mus musculus with 8 samples.

Results

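Resumption of meiosis and arrest in metaphase of the second meiotic division both depend on M-phase promoting factor, the complex of the kinase CDK1 with a B-type cyclin. The 10 genes described here encode the 3 B-type cyclins (Ccnb1, Ccnb2, Ccnb3), Cdk1, the kinases that inhibit CDK1 by phosphorylation (Wee2, Pkmyt1), the phosphatases that remove these phosphates (Cdc25a, Cdc25b, Cdc25c) and the polo-like kinase Plk1. They were chosen by name for these roles, and all 10 were among the 24860 genes listed and among the 8021 genes tested, those with a mean of at least 1 FPKM (fragments relative to exon length and library total) over the 8 libraries. In a mouse oocyte, cyclin B and CDK1 activity rises at germinal vesicle breakdown, drops at anaphase of the first division as cyclin B is degraded, and rises again in the arrested egg. Much of this control acts on protein: cyclins are translated from stored mRNA and destroyed through the anaphase-promoting complex, and WEE2, PKMYT1 and the CDC25 enzymes set the phosphorylation of CDK1. RNA levels in the mature egg therefore describe the store of templates, not kinase activity.

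The libraries came from mature eggs, arrested at metaphase II (MII), of C57BL/6 females at postnatal day 42. The WT group had 4 libraries of wild-type animals, and the Esrp1_KO group had 4 libraries of animals with the genotype Esrp1-/-, labelled as null for this RNA-binding regulator of splicing. Each tube held 15 oocytes, and cDNA was made by Smart-seq2, which primes on poly(A) tails and keeps no strand. The sources used here do not give how the Esrp1 allele was made, or whether a tube held eggs of a single female, and p-values then measure only how tubes vary. In such bulk samples, fewer cells of a type and less RNA per cell cannot be told apart, and a shorter poly(A) tail was not measured.

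Esrp1 itself was at 17.1, 17.2, 19.5 and 16.2 FPKM in WT replicates 1 to 4 and at 3.62, 3.43, 2.31 and 3.83 FPKM in Esrp1_KO replicates 1 to 4. The difference lay in the direction of the labels (exact two-sided permutation p = 0.0286, the smallest that 4 against 4 libraries allow). Although the label is null, Esrp1 RNA was not absent in Esrp1_KO, at 0.188 times the WT mean with 417 to 739 reads per library. What this remaining RNA encodes was not tested. The libraries stood on 24910433 to 32337966 reads, worked out from the deposited values. Summed oocyte markers (10 genes, the zona pellucida genes among them) lay at 5379 to 5617 FPKM in WT and 4707 to 6357 FPKM in Esrp1_KO, a sum carried mainly by Gdf9 and Bmp15, which did not pass the test. Within the list Zp1, Zp2, Zp3 and Ooep were higher in Esrp1_KO (1.72 to 2.23 times) and Dazl (0.391 times) and Mos (0.529 times) were lower (limma, adjusted p under 0.05). Of 12 follicle cell markers listed, Cyp19a1 alone reached 1 FPKM in any library, and it was at 6.10 ± 0.71 FPKM in WT and 1.87 ± 0.39 FPKM in Esrp1_KO. The 12 summed to 5.71 to 7.35 FPKM in WT and 1.91 to 3.11 FPKM in Esrp1_KO. Blood and immune markers summed to 1.26 to 2.16 FPKM in WT and 2.03 to 11.3 FPKM in Esrp1_KO, where Lyz2 reached 5.44 FPKM in replicate 3 and was listed at 0 in the 4 WT libraries. The part of these other markers in the values below was not tested.

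Maternal cyclin B mRNAs are textbook examples of messages held dormant with short poly(A) tails and activated through U-rich cytoplasmic polyadenylation elements near the poly(A) signal. The following stretches of 3′ UTR are shown because poly(A) tails also primed the libraries. They are the matches in the 3 cyclin B messages and in Wee2, whose matches lie at the poly(A) signal; those of Cdk1 and Cdc25a are only counted. Capitals mark TTTTAT or TTTTAAT (the DNA spelling of common forms of the element, searched on the transcript strand) and, where it lies in the stretch, the poly(A) signal AATAAA. Sequences are from GENCODE M21 transcripts on GRCm38, printed in the direction of the RNA.
Ccnb1, chr13:100779247-100779276, minus strand: ccaagtatctttTTTTATgtaattatttat
Ccnb1, chr13:100779084-100779113, minus strand: ccaaggagatatTTTTATatgggttcattt
Ccnb1, chr13:100779069-100779098, minus strand: tatatgggttcaTTTTATcaacagtattcc
Ccnb1, chr13:100778775-100778804, minus strand: ctcatttgctgTTTTAATttatacatctga
Ccnb2, chr9:70407860-70407889, minus strand: atcctgtatgtaTTTTATtctagtttacat
Ccnb3, chrX:6979702-6979731, minus strand: tcttgaaattacTTTTATgaaagaagagaa
Wee2, chr6:40466766-40466795, plus strand: taTTTTAATccagatcattgtaAATAAAga
Wee2, chr6:40466780-40466809, plus strand: tcattgtaAATAAAgaTTTTATcttatcca

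In these annotated transcripts the 3′ UTR of Ccnb1 (1028 bases) held 4 matches, the last of them 137 bases before the annotated end. It also held 5 poly(A) signals (AATAAA or ATTAAA), 1 of them in the last 100 bases. Distances from the matches to the earlier signals are not given here. Ccnb2 held 1 match in 227 bases, Ccnb3 1 in 234, Cdk1 2 in 3352, Wee2 2 in 850 and Cdc25a 6 in 1676, while Pkmyt1, Cdc25b, Cdc25c and Plk1 held 0. Within the last 100 bases, where the poly(A) signal usually lies, Ccnb3 had 1 match and Wee2 had 2, and the other members had none. Of 6552 tested genes with a 3′ UTR of at least 100 bases, 23.4% had a match in that window, so 2 of 10 members is close to the share of all genes. A match is a run of letters and not a shown binding site, and no match says only that these letters are not in the window.

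Of the 10 genes, 2 fell and 1 rose in Esrp1_KO at an adjusted p of 0.05 (limma, Benjamini-Hochberg over 8021 genes). Ccnb1 and Ccnb3 were the genes that fell, and Cdc25b was the gene that rose. Across all genes tested 36.9% passed, 13.9% higher and 23.1% lower, so 3 of 10 members is a share near the background and is no result about the group. The groups did not overlap for the same 3 members, against 36.8% of all genes tested. The median log2 difference (Esrp1_KO minus WT, on log2(FPKM + 1)) was 0.15 over the members and −0.06 over all genes tested. Among genes that passed, 62.5% were lower with FPKM as deposited and 48.6% were lower with median-ratio scaling (1551 higher, 1467 lower), which moved the median of all genes from −0.06 to 0.05. Ccnb1, Ccnb3 and Cdc25b kept their direction and call under that scaling and under quantile normalization.

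**Figure D1:**
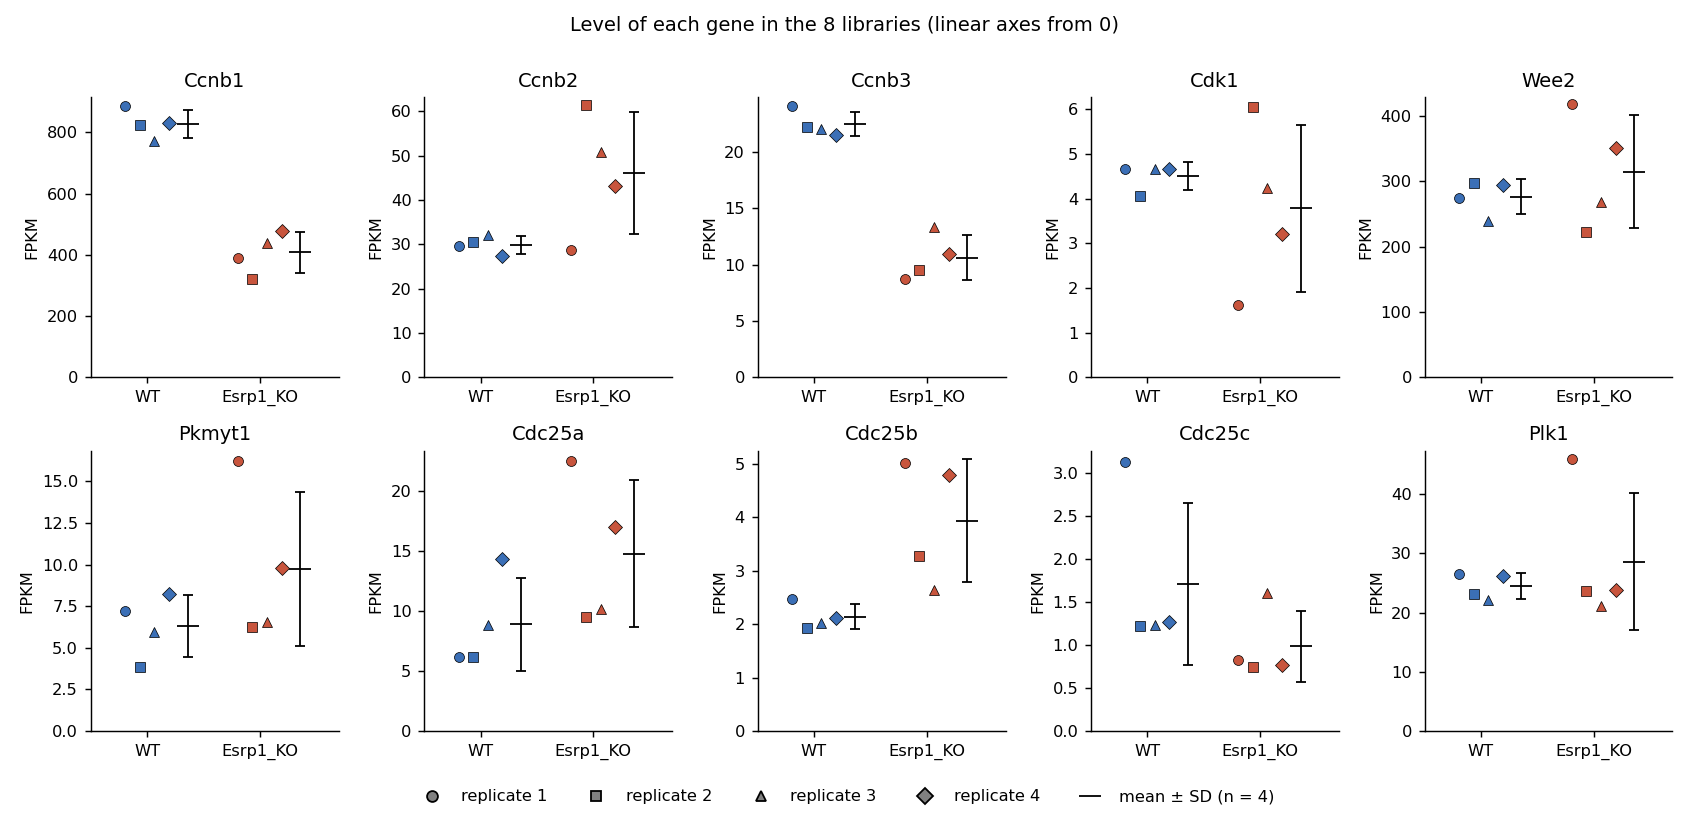
FPKM (linear axes from 0) of each of the 10 genes in the 4 WT (blue) and 4 Esrp1_KO (red) libraries, with marker shapes for the replicate number and bars for mean ± SD (n = 4). All Esrp1_KO values lie below all WT values for Ccnb1 and Ccnb3 and above them for Cdc25b, and the SD is larger in Esrp1_KO for every gene but Cdc25c.

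Ccnb1 encodes cyclin B1, the main activator of CDK1 in mitosis and meiosis (ENSMUSG00000041431, chromosome 13, 100778650 to 100786570, minus strand). Its level was 886, 825, 773 and 830 FPKM in WT replicates 1 to 4 and 392, 322, 440 and 479 FPKM in Esrp1_KO replicates 1 to 4. The highest Esrp1_KO library thus lay well below the lowest WT library. The mean went from 828 ± 46.2 to 408 ± 67.5 FPKM (SD, n = 4), 0.493 times the WT level, with a log2 difference of −1.03 ± 0.14 (SE) and an adjusted p of 0.000384 (limma). Since the groups did not overlap, Ccnb1 was lower in any pairing of libraries, the 4 same-numbered pairs included. Ccnb1 was between the 53rd and 59th most abundant gene by FPKM in WT and between the 87th and 130th in Esrp1_KO. The depth behind these values was 87010 to 101279 reads per WT library and 33859 to 57121 per Esrp1_KO library.

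Ccnb3 encodes cyclin B3, which promotes anaphase onset of the first meiotic division in mouse oocytes (ENSMUSG00000051592, chromosome X, 6979652 to 7041619, minus strand). It was at 24.1, 22.3, 22.1 and 21.5 FPKM in WT replicates 1 to 4 and at 8.75, 9.51, 13.4 and 10.9 FPKM in Esrp1_KO replicates 1 to 4. As for Ccnb1, no Esrp1_KO library reached the WT range. The mean fell from 22.5 ± 1.11 to 10.6 ± 2.03 FPKM, 0.473 times the WT level, with a log2 difference of −1.03 ± 0.14 (SE, adjusted p = 0.00046, limma). Without overlap, Ccnb3 was also lower in any pairing of libraries, the 4 same-numbered pairs included. Reads numbered 2543 to 2899 in WT and 1082 to 1749 in Esrp1_KO.

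Ccnb2 encodes cyclin B2, the other partner of CDK1 in oocytes, which can stand in for cyclin B1 (ENSMUSG00000032218, chromosome 9, 70407692 to 70421547, minus strand). Its level was 29.7, 30.4, 32.0 and 27.4 FPKM in WT replicates 1 to 4 and 28.7, 61.5, 51.0 and 43.3 FPKM in Esrp1_KO replicates 1 to 4. Esrp1_KO replicates 2, 3 and 4 were above the WT range, and replicate 1 lay within it. The mean was 29.9 ± 1.95 FPKM in WT and 46.1 ± 13.8 FPKM in Esrp1_KO, and the log2 difference of 0.56 ± 0.21 (SE, 95% interval 0.10 to 1.02) did not pass the test (adjusted p = 0.0586, limma). With the replicate number as a block the adjusted p was 0.0338, and without Esrp1_KO replicate 1 the difference was 0.76 (adjusted p = 0.00343). Median-ratio scaling and quantile normalization also brought it past the threshold. The difference was 0.82 (adjusted p = 0.0285, limma) within replicates 2 and 3 alone and 0.30 (adjusted p = 0.366, limma) within replicates 1 and 4 alone.

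The proportions of the 3 cyclins within a library are free of library scaling, and they are given as a description with no test. Ccnb1 FPKM was 24.1 to 30.3 times that of Ccnb2 in the WT libraries and 5.24 to 13.7 times in the Esrp1_KO libraries, with no overlap. Ccnb1 was 35.0 to 38.5 times Ccnb3 in WT and 32.9 to 44.7 times in Esrp1_KO, so the 2 transcripts that fell kept overlapping proportions. Ccnb2 was 1.33 ± 0.10 times Ccnb3 in WT and 4.38 ± 1.42 times in Esrp1_KO. The summed cyclin B level was 881 ± 46.1 FPKM in WT and 465 ± 64.9 FPKM in Esrp1_KO, and the Ccnb2 share of it was 3.40 ± 0.35% in WT and 10.1 ± 3.92% in Esrp1_KO. The Ccnb2 share was 6.68% in Esrp1_KO replicate 1 and 15.6% in replicate 2, the lowest and highest of that group.

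**Figure D2:**
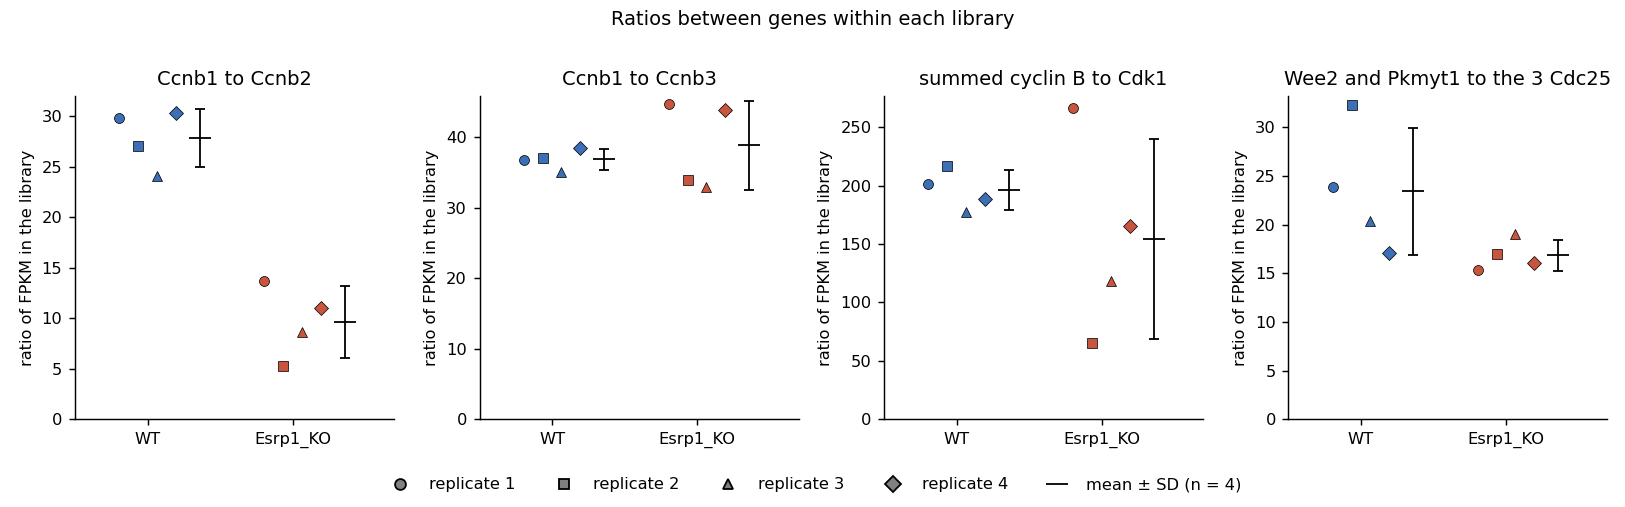
Ratio of FPKM within each library (linear axes from 0) for Ccnb1 to Ccnb2, Ccnb1 to Ccnb3, the summed cyclins B to Cdk1, and the summed inhibitory kinases Wee2 and Pkmyt1 to the summed 3 Cdc25 genes, with points for the 4 WT (blue) and 4 Esrp1_KO (red) libraries and bars for mean ± SD. The groups are apart for Ccnb1 to Ccnb2 (24.1 to 30.3 against 5.24 to 13.7) and overlap in the other panels.

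The Ccnb1 value has a limit of its own. Of its 50-base stretches, 23.4% also occur in transcripts of other genes, nearly all in processed pseudogenes, so reads could be divided among them. Ccnb1-ps was at 35.8 ± 4.71 FPKM in WT and 23.1 ± 4.38 FPKM in Esrp1_KO (log2 difference −0.63, adjusted p = 0.0145, limma), and Gm8416 at 11.8 ± 0.62 and 8.15 ± 1.10 FPKM (−0.49, adjusted p = 0.012, limma). Gm12856 was at 2.53 ± 0.80 and 1.41 ± 0.43 FPKM (adjusted p = 0.0491, limma) with overlapping groups, and Gm4870 was at or near 0. The pseudogenes called were thus lower in Esrp1_KO, like Ccnb1. Summed over Ccnb1 and these 4 copies, the level was 3558 ± 192 RPM (reads relative to the library total) in WT and 1763 ± 291 in Esrp1_KO, 0.496 times, against 0.493 times for Ccnb1 alone. Ccnb1 held 98.2 ± 0.23% of these reads in WT and 97.6 ± 0.06% in Esrp1_KO.

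**Figure D3:**
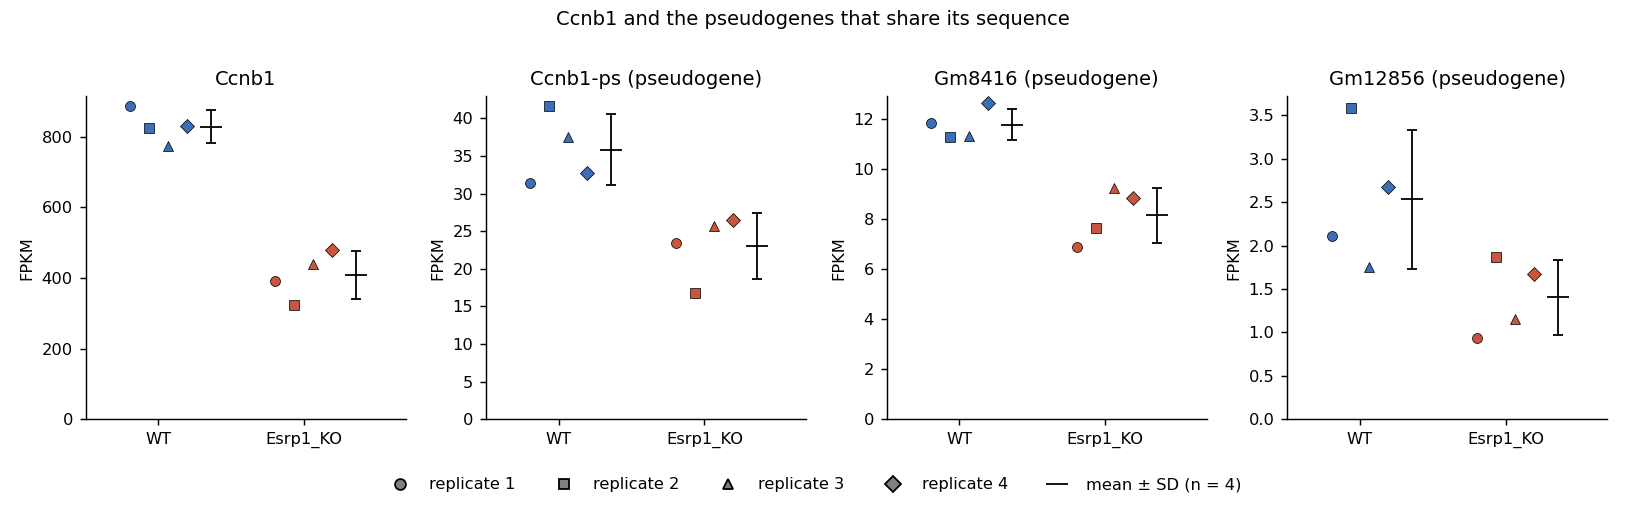
FPKM (linear axes from 0) of Ccnb1 and of 3 processed pseudogenes that share stretches with it, in the 4 WT (blue) and 4 Esrp1_KO (red) libraries, with bars for mean ± SD. Groups are apart for Ccnb1, Ccnb1-ps (31.4 to 41.7 against 16.8 to 26.4) and Gm8416, and overlap for Gm12856.

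Cdk1 encodes the catalytic subunit (ENSMUSG00000019942, chromosome 10, 69335146 to 69352938, minus strand). It was at 4.66, 4.05, 4.67 and 4.67 FPKM in WT replicates 1 to 4 and at 1.61, 6.05, 4.25 and 3.22 FPKM in Esrp1_KO replicates 1 to 4. Of the Esrp1_KO libraries, replicates 1 and 4 lay below the narrow WT range, replicate 2 above it and replicate 3 within it. The mean was 4.51 ± 0.31 FPKM in WT and 3.78 ± 1.86 FPKM in Esrp1_KO, a log2 difference of −0.29 ± 0.26 (SE) that did not pass (adjusted p = 0.406, limma). Its 95% interval ran from −0.87 to 0.29, so neither a lower nor a higher level is shown. The difference was −0.033 without Esrp1_KO replicate 1, −0.51 without Esrp1_KO replicate 2, −0.77 within replicates 1 and 4 alone and 0.18 within replicates 2 and 3 alone, so its size and sign rest on which libraries enter. The summed cyclin B level was 177 to 217 times that of Cdk1 in WT and 65.1 (replicate 2) to 266 (replicate 1) times in Esrp1_KO.

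Wee2 is the oocyte-specific WEE1 family kinase that holds CDK1 inactive in the germinal vesicle oocyte and again at exit from MII arrest (ENSMUSG00000037159, chromosome 6, 40439088 to 40466813, plus strand). It was at 274, 297, 240 and 295 FPKM in WT replicates 1 to 4 and at 419, 223, 268 and 351 FPKM in Esrp1_KO replicates 1 to 4. The ranges overlapped, with Esrp1_KO values above and below those of WT. The mean was 276 ± 26.5 FPKM in WT and 315 ± 87.2 FPKM in Esrp1_KO (log2 difference 0.15 ± 0.19 SE, 95% interval −0.28 to 0.58, adjusted p = 0.57, limma), and it was 0.0011 without Esrp1_KO replicate 1, 0.30 without Esrp1_KO replicate 2 and −0.0017 without replicate 1 of both groups. Wee2 was second to Ccnb1 in level in WT, where the ranges were apart, and in Esrp1_KO the ranges of these genes overlapped.

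Pkmyt1 encodes the membrane-bound kinase of the same family (ENSMUSG00000023908, chromosome 17, 23726336 to 23736735, plus strand). Its level was 7.20, 3.86, 5.98 and 8.24 FPKM in WT replicates 1 to 4 and 16.2, 6.26, 6.55 and 9.82 FPKM in Esrp1_KO replicates 1 to 4. The groups overlapped, although the Esrp1_KO library was the higher in 4 of 4 same-numbered pairs. The mean was 6.32 ± 1.88 and 9.71 ± 4.62 FPKM, and the log2 difference of 0.50 ± 0.29 (SE, 95% interval −0.16 to 1.15) did not pass (adjusted p = 0.212, limma). It was 0.24 without Esrp1_KO replicate 1 and 0.31 without WT replicate 2. Reads numbered 197 to 1069 per library, 5.88% of its 50-base stretches are shared with another gene, and 8.76% of its exon bases lie under exons of a gene on the opposite strand, whose reads cannot be told apart here. These shares cover all annotated exons, 3643 bases, while the length behind the values was 2039 bases, so the shares for the values may differ.

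Among the phosphatases, Cdc25b is the form that mouse oocytes need to resume meiosis (ENSMUSG00000027330, chromosome 2, 131186949 to 131198497, plus strand). It was at 2.47, 1.93, 2.03 and 2.12 FPKM in WT replicates 1 to 4 and at 5.02, 3.28, 2.65 and 4.79 FPKM in Esrp1_KO replicates 1 to 4. The lowest Esrp1_KO library was just above the highest WT library. The mean rose from 2.14 ± 0.24 to 3.94 ± 1.15 FPKM, 1.84 times, with a log2 difference of 0.63 ± 0.18 (SE, 95% interval 0.23 to 1.02, adjusted p = 0.0193, limma). With no overlap between the groups, Cdc25b was higher in the 4 same-numbered pairs, as in any pairing. Of its 50-base stretches 1.15% are shared, and 2.47% of its exon bases lie under exons of the opposite strand. Its values rest on 180 to 243 reads per WT library and 283 to 605 per Esrp1_KO library. The call was lost without Esrp1_KO replicate 4 (0.54, adjusted p = 0.0569), within replicates 2 and 3 alone (0.41, adjusted p = 0.189), without replicate 1 of both groups (0.57, adjusted p = 0.054) and with no filter on low values (adjusted p = 0.0544).

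Cdc25a, which acts in mitotic entry and in the meiotic divisions (ENSMUSG00000032477, chromosome 9, 109875579 to 109893895, plus strand), was at 6.20, 6.15, 8.81 and 14.3 FPKM in WT replicates 1 to 4. In Esrp1_KO replicates 1 to 4 it was at 22.4, 9.46, 10.2 and 16.9 FPKM. WT replicate 4 lay among the Esrp1_KO values, and the other WT libraries lay below all of them. The log2 difference of 0.67 ± 0.31 (SE, 95% interval −0.04 to 1.37) did not pass (adjusted p = 0.124, limma), and without WT replicate 4 it was 0.90 (adjusted p = 0.0447). Within replicates 2 and 3 alone it was 0.37 and without replicate 1 of both groups 0.32. Although the groups overlapped, the Esrp1_KO library was the higher in 4 of 4 same-numbered pairs.

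Cdc25c, the third phosphatase, was the lowest of the 10 (ENSMUSG00000044201, chromosome 18, 34732993 to 34751533, minus strand). It was at 3.13, 1.21, 1.23 and 1.26 FPKM in WT replicates 1 to 4 and at 0.828, 0.745, 1.60 and 0.765 FPKM in Esrp1_KO replicates 1 to 4. WT replicate 1 stood above the other WT libraries and Esrp1_KO replicate 3 above the others of its group. The log2 difference was −0.41 ± 0.23 (SE, 95% interval −0.93 to 0.10, adjusted p = 0.187, limma), on 36 to 160 reads per library. It was −0.19 without WT replicate 1, and −0.77 within replicates 1 and 4 alone against −0.060 within replicates 2 and 3 alone. Of its 50-base stretches 11.9% are shared with other genes and 12.7% of its exon bases lie under exons of the opposite strand. As for Pkmyt1, these shares cover all annotated exons (4919 bases), and the length behind the values was shorter (1941 bases).

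The balance of inhibitory kinases to phosphatases followed the spread of these genes. Wee2 and Pkmyt1 together were 17.1 to 32.4 times the 3 Cdc25 genes in WT and 15.4 to 19.1 times in Esrp1_KO, with overlap. Wee2 against Cdc25b alone was at 111 to 154 in WT and 67.8 to 101 in Esrp1_KO, without overlap, a ratio that contains the gene called above. The summed Cdc25 level was 12.7 ± 3.55 FPKM in WT and 19.7 ± 7.03 FPKM in Esrp1_KO and overlapped between the groups. These values rest on the exon lengths used. Per length of the main transcript, Cdc25a would be multiplied by 2.21, Cdc25b by 1.21 and Wee2 by 1.09.

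Plk1 encodes the polo-like kinase that activates CDC25 and acts on spindle and centromere (ENSMUSG00000030867, chromosome 7, 122159439 to 122169873, plus strand). It was at 26.6, 23.1, 22.1 and 26.2 FPKM in WT replicates 1 to 4 and at 45.9, 23.6, 21.1 and 23.9 FPKM in Esrp1_KO replicates 1 to 4. Replicate 1 stood apart in Esrp1_KO, and the other Esrp1_KO libraries lay in or just below the WT range. The log2 difference was 0.15 ± 0.22 (SE, 95% interval −0.35 to 0.65, adjusted p = 0.631, limma) and it was −0.093 without Esrp1_KO replicate 1, so its sign rests on that library. Of its 50-base stretches 10.4% are shared with other genes, and 7.09% of its exon bases lie under exons of the opposite strand.

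**Figure D4:**
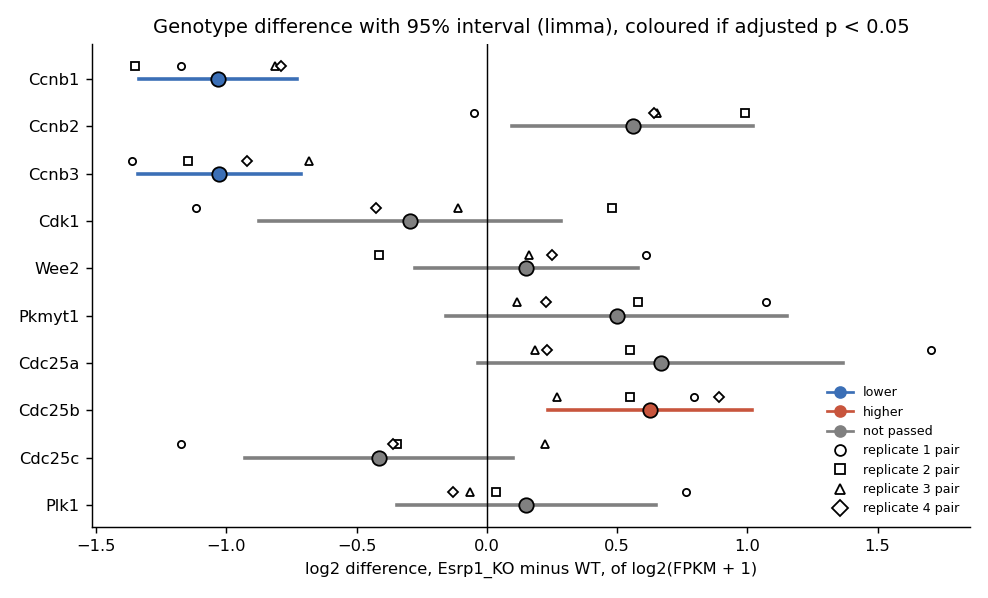
Log2 difference (Esrp1_KO minus WT, of log2(FPKM + 1)) of each gene with its 95% interval from limma as a large point and line, coloured where the adjusted p is under 0.05, and open markers for the 4 same-numbered pairs. The pairs of Ccnb1 and Ccnb3 lie between −1.36 and −0.68, those of Pkmyt1, Cdc25a and Cdc25b all above 0, and those of Ccnb2, Cdk1, Wee2, Cdc25c and Plk1 on both sides of 0.

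Esrp1_KO libraries differed more among themselves than WT libraries did for most members. The coefficient of variation was 5.58% in WT and 16.5% in Esrp1_KO for Ccnb1, 6.51% and 29.9% for Ccnb2, 6.86% and 49.2% for Cdk1, and 9.09% and 40.4% for Plk1. It was higher in WT for Cdc25a (43.2% against 41.6%) and Cdc25c (55.4% against 41.8%). Oocyte markers outside the members also spread more in Esrp1_KO, with an SD for Gdf9 of 149 FPKM in WT and 499 FPKM in Esrp1_KO. The SD of Bmp15 was 84.4 and 328 FPKM, while that of Mos went the other way, 34.9 and 15.7 FPKM. Spread over all genes tested was not compared, so a wider spread is not shown to be particular to the members. Esrp1_KO replicate 1 was the highest library of its group for 5 members (Wee2, Pkmyt1, Cdc25a, Cdc25b, Plk1) and the lowest for 3 (Ccnb2, Ccnb3, Cdk1), and replicate 2 was at an end for 7 of the 10. The same counts over all genes tested were not made, and any gene has a highest and a lowest library in each group. Replicate 1 also had the most reads, 32337966, and replicate 2 the fewest, 24910433. Whether depth has a part in this spread was not tested, and no test of the spread was made.

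Within WT the order of level was Ccnb1, Wee2, Ccnb2, Plk1, Ccnb3, Cdc25a, Pkmyt1, Cdk1, Cdc25b and Cdc25c. Neighbours whose library ranges overlapped were Plk1 and Ccnb3, Cdc25a and Pkmyt1, Pkmyt1 and Cdk1, and Cdc25b and Cdc25c. In Esrp1_KO the mean of Ccnb3 came after that of Cdc25a and the mean of Cdk1 after that of Cdc25b, but the library ranges of both pairs overlapped. Also overlapping in Esrp1_KO were the neighbours Ccnb1 and Wee2, Ccnb2 and Plk1, Plk1 and Cdc25a, and Ccnb3 and Pkmyt1. Apart from Pkmyt1 and Cdc25c, these are levels per length of all annotated exons. That length exceeds the main transcript for some genes: Ccnb1 had 4217 exon bases against 2489 in the transcript, and Cdc25a 8023 against 3632. For Pkmyt1 and Cdc25c the length behind the values was 2039 and 1941 bases, against 3643 and 4919 annotated exon bases. Per transcript length, Ccnb1 would be at 1404 ± 78.3 FPKM in WT and Cdc25a at 19.6 ± 8.47 FPKM. The WT order stayed as given on that scale, and in Esrp1_KO Cdc25a moved ahead of Plk1.

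The wider machinery around CDK1 was read from 7 lists of 115 genes, of which 85 were tested. Of these, 16 were higher and 6 were lower in Esrp1_KO and 63 did not pass (limma), with a median log2 difference of 0.10 against −0.06 over all genes tested. Among the 16, Ccnd1, Cdk9 and Cdkn2c had WT means below 1 FPKM and entered the test only through their Esrp1_KO values, so the filter favoured these calls. The share called was 25.9% (18.8% higher, 7.06% lower), against 36.9% over all genes tested (13.9% higher, 23.1% lower). Among called genes the lower ones were 27.3% here and 62.5% over all genes with FPKM as deposited, and 13.8% here and 48.6% over all genes with median-ratio scaling (25 higher, 4 lower). With mean FPKM of at least 5 the counts were 9 higher and 3 lower, with no filter 9 and 5, within replicates 2 and 3 alone 6 and 2, and within replicates 1 and 4 alone 9 and 7. Without WT replicate 2, or without Esrp1_KO replicate 4, 10 were higher. Of the 22 calls, 13 held in each omission of a single library in which the gene still passed the filter. Ccnd1 was tested in 6 such omissions and Cdk9 in 5, and the omissions not tested were each of an Esrp1_KO library. Of these 13, Cdk8, Cdk9 and Ppp1ca did not pass within replicates 1 and 4 alone, and Cdk8, Cdk17, Tpx2, Fzr1 and Anapc10 did not pass within replicates 2 and 3 alone, where Ccnd1 and Cdk9 were below the filter.

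**Figure D5:**
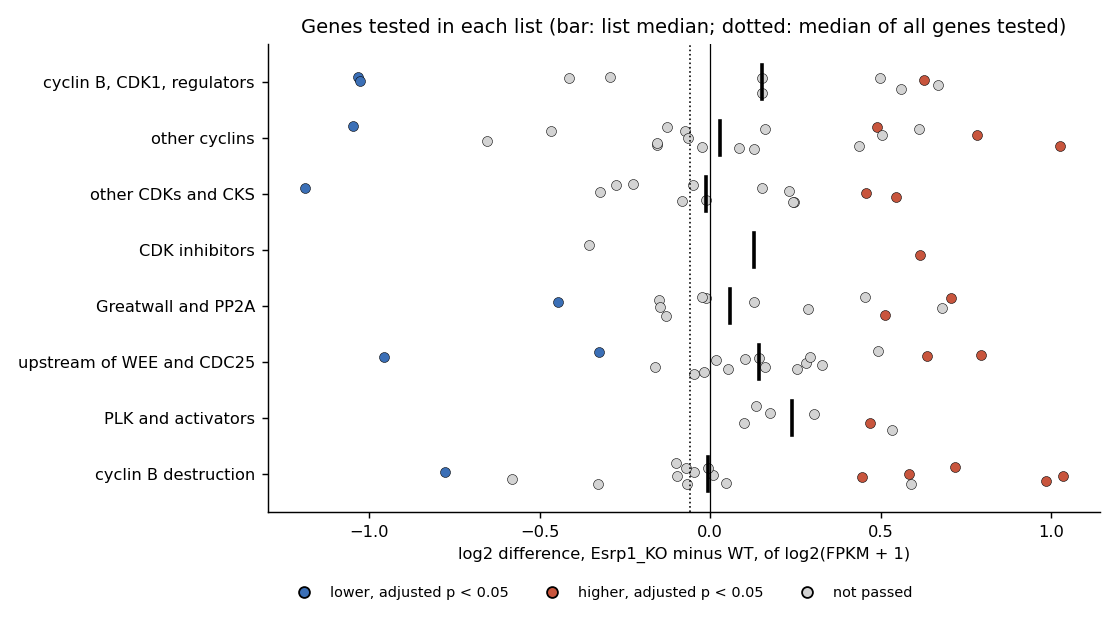
Log2 difference (Esrp1_KO minus WT, of log2(FPKM + 1)) of each tested gene in the member list and 7 lists of related genes, in blue or red where the adjusted p is under 0.05, with a bar at each list's median and a dotted line at the median of all genes tested. List medians lie between −0.01 and 0.24, and each list but 2 has called genes on both sides of 0.

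Of 18 other cyclins tested, 3 rose, 1 fell and 14 did not pass (22.2% called, against 36.9% over all genes, median 0.03). Ccni, an atypical cyclin, rose from 4.0 ± 0.86 to 9.09 ± 0.82 FPKM (adjusted p = 0.000667, limma). Ccne1, the cyclin E1 that partners CDK2, fell from 6.21 ± 2.42 to 2.40 ± 0.63 FPKM (adjusted p = 0.00592, limma). Ccnd1, cyclin D1, was at 0.491 ± 0.22 FPKM in WT and 1.58 ± 0.53 FPKM in Esrp1_KO (adjusted p = 0.0075, limma). Its WT mean lay below the 1 FPKM filter, which it passed only through its Esrp1_KO values, so the filter favoured a higher call. With no filter the adjusted p of Ccnd1 was 0.0266 (limma). This gene has 21.6% shared stretches and 23.4% of its exon bases under exons of the opposite strand. Ccnc, the Mediator cyclin, rose from 4.94 ± 0.74 to 7.38 ± 1.29 FPKM (adjusted p = 0.0285, limma), a call lost in 6 of 8 omissions of a library.

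Among 13 other cyclin-dependent kinases and CKS subunits 2 rose, 1 fell and 10 did not pass (23.1% called, against 36.9% over all genes, median −0.01). Cdk17, a kinase of the PCTAIRE family, fell from 4.31 ± 1.18 to 1.29 ± 0.22 FPKM (adjusted p = 0.000743, limma). Cdk9, which phosphorylates RNA polymerase II, rose from 0.671 ± 0.15 to 1.43 ± 0.16 FPKM, and Cdk8, the Mediator kinase partnered by the Ccnc product, from 3.05 ± 0.32 to 4.55 ± 0.27 FPKM (adjusted p = 0.00722 and 0.0115, limma). The WT mean of Cdk9 lay below the 1 FPKM filter, which it passed only through its Esrp1_KO values, so the filter favoured a higher call. With no filter the adjusted p of Cdk9 was 0.0162 (limma). Of the 2 CDK inhibitor genes tested, Cdkn2c, which binds CDK4 and CDK6, rose from 0.585 ± 0.28 to 1.46 ± 0.66 FPKM (adjusted p = 0.0425, limma), and its call was lost in 4 of 6 omissions. Cdkn2c too passed the filter only through its Esrp1_KO values, and with no filter it was not called (adjusted p = 0.116, limma).

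The Greatwall pathway restrains the phosphatase PP2A that opposes CDK1. Of 12 tested genes of this pathway and of PP2A subunits in general, 2 rose, 1 fell and 9 did not pass (25.0% called, against 36.9% over all genes, median 0.06). The PP2A regulatory subunit Ppp2r5e rose from 2.26 ± 0.16 to 3.73 ± 1.06 FPKM and the catalytic subunit Ppp2ca from 3.87 ± 1.82 to 6.60 ± 0.96 FPKM. Ensa, a Greatwall substrate that inhibits PP2A, fell from 1.93 ± 0.49 to 1.14 ± 0.21 FPKM. These calls (adjusted p = 0.0295, 0.047 and 0.0409, limma) were lost in 3, 6 and 6 of 8 omissions. Ppp2ca has 41.0% of its stretches shared and 41.3% of its exon bases under the opposite strand.

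Upstream of WEE and CDC25 proteins lie cyclic AMP-dependent protein kinase, checkpoint kinases, 14-3-3 proteins and PP1. Of 17 genes tested 2 rose, 2 fell and 13 did not pass (23.5% called, against 36.9% over all genes, median 0.14). Of the regulatory subunits of the cyclic AMP-dependent kinase, which keeps oocytes arrested in prophase, Prkar1a rose from 21.8 ± 2.41 to 38.9 ± 6.91 FPKM (adjusted p = 0.00265, limma) and Prkar2b fell from 20.5 ± 0.93 to 10.3 ± 2.40 FPKM (adjusted p = 0.00182, limma). Ppp1ca, a PP1 catalytic subunit, rose from 23.2 ± 5.06 to 36.2 ± 5.43 FPKM (adjusted p = 0.0171, limma). Chek1, the checkpoint kinase that phosphorylates CDC25, fell from 242 ± 14.3 to 193 ± 15.2 FPKM (adjusted p = 0.0389, limma), a call lost in 7 of 8 omissions and with median-ratio scaling (adjusted p = 0.237).

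Of 6 polo-like kinases and activators of Plk1 and Aurora A, 1 rose and 5 did not pass (16.7% called, against 36.9% over all genes, median 0.24). The gene that rose was Tpx2, the spindle factor that activates Aurora A, from 107 ± 3.23 to 149 ± 6.61 FPKM (adjusted p = 0.00491, limma). Aurka, named for its role after its values were seen, was at 105 ± 19.7 and 156 ± 48.2 FPKM with a log2 difference of 0.53 (95% interval 0.03 to 1.04, adjusted p = 0.0915, limma).

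Cyclin B is destroyed through the anaphase-promoting complex and its activators and inhibitors. Of 17 genes of this machinery 5 rose, 1 fell and 11 did not pass (35.3% called, close to the 36.9% over all genes, median −0.01). Fbxo5, which inhibits the complex, rose from 96.5 ± 9.04 to 159 ± 2.92 FPKM (adjusted p = 0.000853, limma). Fzr1, the activator also called CDH1, rose from 1.45 ± 0.29 to 4.06 ± 1.80 FPKM (log2 difference 0.98, adjusted p = 0.00919, limma), with 1.51 (adjusted p = 0.00857) within replicates 1 and 4 alone and 0.46 (adjusted p = 0.161) within replicates 2 and 3 alone. The subunit Anapc10 fell from 32.9 ± 2.66 to 19.3 ± 5.40 FPKM (adjusted p = 0.012, limma). The ubiquitin-conjugating enzyme Ube2s rose from 42.8 ± 22.6 to 79.7 ± 9.96 FPKM, and the subunits Anapc4 and Anapc5 from 21.5 ± 1.62 to 29.9 ± 4.68 FPKM and from 2.67 ± 0.46 to 4.62 ± 1.64 FPKM (adjusted p = 0.0351, 0.0278 and 0.0468, limma). The calls of these last genes were lost in 6, 6 and 7 of 8 omissions. An inhibitor and an activator of the complex were thus among the genes that rose. Cdc20, the activator used at anaphase and also named after its values were seen, was at 104 ± 11.2 and 83.5 ± 18.6 FPKM (log2 difference −0.33, 95% interval −0.70 to 0.04, adjusted p = 0.143, limma).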

How the data were processed

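The authors deposited FPKM per gene for each library, per the file headers, and the build was GRCm38, per the submitters' processing notes. The aligner, the counter and the annotation are not given in the sources here. FPKM relate reads to exon length and library total, so they are relative, and a change in abundant genes moves the rest. Ensembl IDs were matched to GENCODE M21 symbols (24812 of 24860). Reads per gene and library totals were worked out from the steps of the FPKM values and exon lengths. Of non-zero values below a cap on reads, 91.1% to 91.6% were whole within 0.02 of a read. Values of high read number, such as those of Ccnb1, were left out of this share. For Pkmyt1 and Cdc25c the length was found by search. Totals were 26375545, 25018182, 28152207 and 28932109 reads in WT replicates 1 to 4 and 32337966, 24910433, 28658768 and 28278059 in Esrp1_KO replicates 1 to 4. PCR duplicates carry no molecular identifier, so reads overstate the number of molecules.

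The main test was limma (version 3.58.1, R 4.3.3) with its trend option on log2(FPKM + 1), for the 8021 genes whose mean over the libraries was 1 FPKM or more. Its single term was genotype, tests were two-sided, and p-values were adjusted by Benjamini-Hochberg across these genes, at 0.05. Differences on this scale understate those of low genes. Sums, ratios, sequences and exact permutation tests were computed in Python 3.11.15 with pandas 2.3.3. The fit was run on simulated data with known changes, normal errors and the WT spread in both groups. That run does not cover the wider spread of Esrp1_KO libraries. The members and lists were chosen with earlier results of these data known. Genes named are the 10 members, Esrp1, any gene past the threshold from the 7 lists, the 4 highest of each marker list, and the 3 nearest profiles to Ccnb1 and to Ccnb3. Names beyond this rule are given as such, or are the Ccnb1 pseudogenes. Zp1, Zp2, Zp3 and Mos are also beyond it, named as the other oocyte markers called. Not every gene the rule allows is described. Exon overlap and shared 50-base stretches come from M21, and are given where over 20%, and for members with any.

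The replicate numbers come from the labels. Same-numbered libraries deviated together from their group means (correlations over genes 0.262, 0.317, 0.226 and 0.261 for replicates 1 to 4). Unlike numbers also reached 0.402 (WT replicate 4 with Esrp1_KO replicate 1), the highest of all, 0.252 (WT 3 with Esrp1_KO 2) and 0.176 (WT 2 with Esrp1_KO 3). The correlations do not settle whether same numbers are pairs, so pair counts are a description and the block is an alternative. Alternatives were a pseudocount of 0.1, a mean of at least 5 FPKM, no filter, median-ratio scaling, quantile normalization, the replicate number as a block, each library left out in turn, replicates 1 and 4 or 2 and 3 alone, and, chosen after seeing the data, replicate 1 of both groups left out and voom on recovered reads.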

Additional observations from a re-analysis of the deposited data

Results flagged for a closer look

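Among 82 groups of 4 libraries examined (the 10 members, Esrp1, the 22 called pathway genes, 7 ratios or shares and the read totals, in each genotype), 5 had a library far from the other 3 compared with the whole range of the group. By chance about 1 in 20 groups is marked so. Cdk1 in WT replicate 2 was at 4.05 FPKM, below the other WT libraries at 4.66 to 4.67, a gap that is large only against their very narrow range. Cdc25c in WT replicate 1 was at 3.13 FPKM, against 1.21 to 1.26 in the others, and in Esrp1_KO replicate 3 it was at 1.60 FPKM, against 0.745 to 0.828. Plk1 in Esrp1_KO replicate 1 was at 45.9 FPKM, against 21.1 to 23.9, and Ube2s in the same library at 94.6 FPKM, against 73.0 to 75.7.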

How the results depend on the processing

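Ccnb1 and Ccnb3 stayed lower and past the threshold in each of the 18 alternatives run (limma, highest adjusted p = 0.0173 and 0.0334, both within replicates 2 and 3 alone), and 2 members were lower throughout. The count of members higher was 0 with a mean of at least 5 FPKM, where Cdc25b, Cdc25c and Cdk1 are not tested, 0 with no filter, 2 with median-ratio scaling, 2 with quantile normalization, 2 with the replicate block, and between 0 and 2 when a library was left out. Ccnb2 passed with median-ratio scaling (0.69), quantile normalization (0.62), the replicate block (0.56), replicates 2 and 3 alone (0.82) and without replicate 1 of both groups (0.76), was at 0.30 within replicates 1 and 4 alone, and ranged from 0.41 to 0.76 when a library was left out. Cdc25b failed with no filter (0.63), with replicates 2 and 3 alone (0.41) and without replicate 1 of both groups (0.57), and ranged from 0.52 to 0.76 with a library left out. Cdc25a ranged from 0.45 to 0.90 and passed without WT replicate 4. Signs turned within replicates 2 and 3 alone for Cdk1 (0.18), Wee2 (−0.13) and Plk1 (−0.016), without replicate 1 of both groups for Wee2 (−0.0017) and Plk1 (−0.054), and without Esrp1_KO replicate 1 for Plk1 (range −0.093 to 0.27); these genes passed in no setting. The pairing of replicates in the block changed no other member's call. Over all genes, higher and lower calls were 668 and 996 with a mean of at least 5 FPKM, 569 and 879 within replicates 2 and 3, and 675 and 1339 within replicates 1 and 4, where fewer genes or libraries entered. Over the 7 lists, 9 higher and 3 lower genes passed with a mean of at least 5 FPKM, 9 higher and 5 lower with no filter, 25 higher and 4 lower with median-ratio scaling, 9 higher and 7 lower within replicates 1 and 4, 6 higher and 2 lower within replicates 2 and 3, and 10 to 13 higher with a library left out. Beyond those with fewer genes or libraries, the cause was not tested. Depth limits Cdc25c (36 reads in its lowest library) and Cdc25b (180) most.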

Other observations

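Among 3794 named genes whose mean was 5 FPKM or more, the profiles closest to that of Ccnb1 over the 8 libraries (root mean square difference of centred log2 values) were those of Scamp1 (0.096), Zfp735 (0.104) and Eps15 (0.107). Closest to Ccnb3 were Lin7c (0.104), Scamp1 (0.107) and Rrn3 (0.108). Scamp1, a secretory carrier membrane protein gene, was at 17.2 ± 1.39 FPKM in WT and 7.58 ± 1.11 FPKM in Esrp1_KO. Zfp735, a zinc finger gene, was at 90.1 ± 5.52 and 41.6 ± 5.44 FPKM, and Lin7c, which encodes a scaffold protein, at 42.4 ± 3.17 and 19.6 ± 2.96 FPKM. These genes were picked for likeness, and no test applies to it.

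Promoters of cell cycle genes that peak at mitosis often carry a CHR element (TTTGAA) with CCAAT boxes. In windows from 250 bases before to 50 after the start (RefSeq, GRCm38.p6), 8 of the 10 members matched a promoter. Searched on both strands, TTTGAA with CCAAT was in those of Ccnb2 (2 and 3 matches), Cdk1 (2 and 3) and Plk1 (1 and 1), against 6.95% of 32851 promoters. Ccnb1 (0 and 2), Wee2 (0 and 2), Cdc25a (0 and 2) and Cdc25b (0 and 1) had CCAAT alone in the window, and Ccnb3 had neither. Over all promoters CCAAT was in 37.4% and TTTGAA in 17.9%, so a CCAAT match is common. A match is a description of letters, not of binding.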
